A study of Mus musculus with 12 samples.

Results

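The genes described here are the solute carriers outside the mitochondrial SLC25 family, the membrane transporters through which a cell takes up, releases and sorts small molecules. Members were all genes whose symbol begins with Slc, a number, the letter a and another number, without the Slc25 genes and without Slc16a3, Slc2a1, Slc7a1, Slc7a2, Slc7a11, Slc40a1, Slc11a1 and Slc11a2. This rule used symbols only, and it found 180 of the 17723 genes in the deposited table. Among them, 6 bear such a symbol without being a solute carrier: Slc4a1ap, Slc7a6os, Slc9a3r1 and Slc9a3r2 are named after a carrier gene or protein they lie beside or bind, and Slc2a4rg-ps and Slc39a1-ps are pseudogenes.

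Bulk RNA sequencing gave the mRNA levels of BMDMs (bone marrow-derived macrophages, grown from marrow in M-CSF) of wild-type C57BL/6 mice. The 4 groups of 3 libraries were cells left untreated, cells given IL-13 at 2 ng/ml, cells given DKK1 at 30 ng/ml, and cells given IL-13 + DKK1 at these same concentrations, each for 24 h. IL-13 is a cytokine of type 2 immunity that drives alternative activation of macrophages, and DKK1 is a secreted antagonist of Wnt signaling. The groups differed in these agents alone, so the comparisons ask how DKK1 changed the transporter mRNAs with and without IL-13, and how IL-13 changed them with and without DKK1. The labels number the libraries of a group without saying whether they came from separate mice or cultures, so p-values measure the spread between these libraries, which may be technical.

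Solute carriers are numbered by family, and a family mostly shares a kind of substrate. SLC39 (ZIP) proteins bring zinc and other divalent metals into the cytosol, SLC30 (ZnT) proteins carry zinc out of it, and SLC31 proteins carry copper. SLC7 light chains exchange amino acids at the cell surface as partners of the heavy chain SLC3A2, while SLC36, SLC38, SLC6 and SLC1 carriers use proton or sodium gradients. Macrophages rely on such carriers to withhold metals from microbes, to feed on what they engulf and to export the products of their lysosomes.

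The total count per library lay between 32224036 and 40917086, and members took 1.18% ± 0.0046 of it in untreated cells, 1.09% ± 0.014 with IL-13, 1.08% ± 0.0039 with DKK1 and 1.17% ± 0.021 in cells given both (SD, n = 3 each). All 8 macrophage markers were present, and their summed level moved with treatment. It was 27137 to 27823 CPM in untreated cells, 18984 to 20030 with IL-13, 44053 to 44732 with DKK1 and 33252 to 34306 in cells given both (CPM, a count relative to its library's total, scaled between libraries by TMM). Lyz2 made up most of it, with 16645.5 to 17420.3 CPM in untreated cells and 32035.5 to 32428.5 with DKK1. The markers did not move together. With DKK1, Adgre1, Fcgr1, Cd14 and Itgam were also higher and Csf1r overlapped with untreated cells. Cd68 fell from 964 to 1002 CPM in untreated cells to 714 to 738, and Mertk from 346 to 367 CPM to 250 to 283. Of the 5 megakaryocyte and platelet markers 3 were measured, and their summed level was 179 to 211 CPM in untreated cells, 351 to 393 CPM with IL-13, 2182 to 2564 CPM with DKK1 and 3862 to 4054 CPM in cells given both. Most of this sum was the chemokine mRNA Pf4, and the chemokine mRNA Ppbp moved likewise, from 1.34 to 2.32 CPM in untreated cells to between 50.7 and 59.8 with DKK1 and between 123 and 133 in cells given both, while the lineage marker Itga2b lay at or below 2.2 CPM in every library, and Gp9 and Gp1bb were not in the table. The summed markers of neutrophils lay between 450.2 and 844 CPM, those of stromal cells between 56.7 and 173 CPM and those of dendritic cells at 1.77 CPM or less, and the part of any of these in the results below was not tested. In a bulk culture, fewer cells of a type and less RNA per cell cannot be told apart.

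In untreated cells 102 of the 180 members reached a mean of 10 CPM and 28 reached 100 CPM, and the median over members was 15.9 CPM against 9.70 CPM over all genes. Slc6a6, the taurine transporter, took the largest share of the member counts and stood at 1563, 1527 and 1591 CPM in untreated cells, 1247, 1144 and 1230.1 with IL-13, 1253, 1151 and 1187 with DKK1 and 1124, 1037 and 1048 with IL-13 + DKK1. It was highest in the untreated libraries, and the other 9 libraries did not overlap with them. The 9 members with the highest CPM made up 50.5% of all member CPM in untreated cells. Levels of different genes were compared per length, as mean CPM per kb of exon. On that scale Slc48a1, which moves heme out of the phagolysosome, came first in all 4 groups, with 218 CPM per kb in untreated cells, 265 with IL-13, 212 with DKK1 and 279 in cells given both. Next in untreated cells were Slc6a6 at 128 CPM per kb and Slc37a2, a sugar phosphate exchanger of the endoplasmic reticulum, at 99.4 CPM per kb. Slc43a2, a carrier of large neutral amino acids, followed at 87.5 CPM per kb and the heavy chain Slc3a2 at 84.9 CPM per kb. The scaffold gene Slc9a3r1 stood at 73.3 CPM per kb, Slc7a8 at 55.1, the lysosomal peptide carrier Slc15a3 at 41.5 and the zinc importer Slc39a1 at 40.4 CPM per kb. With IL-13 + DKK1 the order behind Slc48a1 was another, with Slc3a2 at 148 CPM per kb, Slc7a8 at 106 and Slc15a3 at 92.4, all above Slc6a6 at 87.8 CPM per kb.

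**Figure D1:**
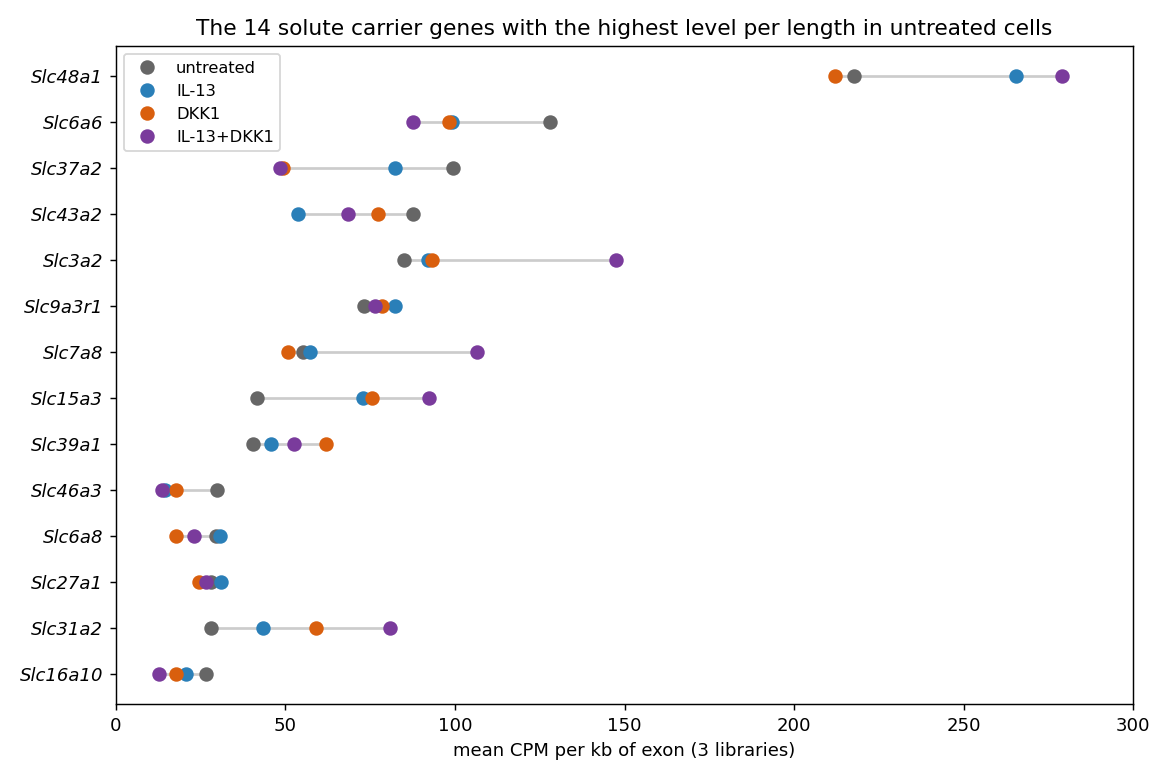
Mean level per length (CPM per kb of exon, x axis) of the 14 members that were highest in untreated cells, with 1 point for each group mean of 3 libraries. Slc48a1 lay to the right of all other genes in every group. Slc48a1, Slc3a2, Slc7a8, Slc15a3 and Slc31a2 had their highest point with IL-13 + DKK1.

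Of the 180 members, 166 had enough counts for the test, and the other 14 did not exceed 28 counts in any library. A member is called changed here when the adjusted p of edgeR's quasi-likelihood test (Benjamini-Hochberg over all 16306 genes tested) was under 0.05 and the log2 fold change exceeded 1 in size. DKK1 alone, compared to untreated cells, increased 11 members and decreased 12, which is 6.63% and 7.23% of the 166, beside 5.18% of all tested genes called higher and 6.46% called lower. IL-13 alone increased 9 and decreased 5 (5.42% and 3.01%, beside 4.64% and 3.49% of all genes). IL-13 + DKK1 against untreated cells increased 17 and decreased 14 (10.2% and 8.43%, beside 5.24% and 6.59%). Adding DKK1 to IL-13 increased 15 and decreased 10 (9.04% and 6.02%, beside 4.66% and 6.10%), and adding IL-13 to DKK1 increased 10 and decreased 3 (6.02% and 1.81%, beside 3.22% and 2.29%). The median log2 fold change over the members lay between -0.07 and 0.08 in these 5 comparisons. Without the TMM factors the median of all genes moved from -0.04 to -0.16 in DKK1 against untreated cells.

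Across the 5 comparisons 51 members were called at least once and 115 never. Single comparisons called 5.51% to 11.8% of all tested genes in either direction. How many of all tested genes were called at least once was not computed, so 51 has no background beside it. A mean under 100 counts applied to 23 of the 51. The effect of DKK1 without IL-13 and its effect with IL-13 rest on different libraries. They shared 5 higher members (45.5% of 11 and 33.3% of 15) and 7 lower members (58.3% of 12 and 70% of 10), and Slc24a3 was lower in the first and higher in the second. Over the 166 members their log2 fold changes correlated with r = 0.51 (rho = 0.48), and over the 120 with a mean of at least 100 counts with r = 0.61. The effects of IL-13 without and with DKK1, again from different libraries, shared 2 higher members of 9 and 10 and no lower member of 5 and 3, with r = 0.23 (rho = 0.31) over all 166 and r = 0.40 over the 120. These correlations run across genes of the same libraries, which are not independent replicates. Overlaps and correlations were not computed over all tested genes, so nothing here shows them to be particular to solute carriers.

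**Figure D2:**
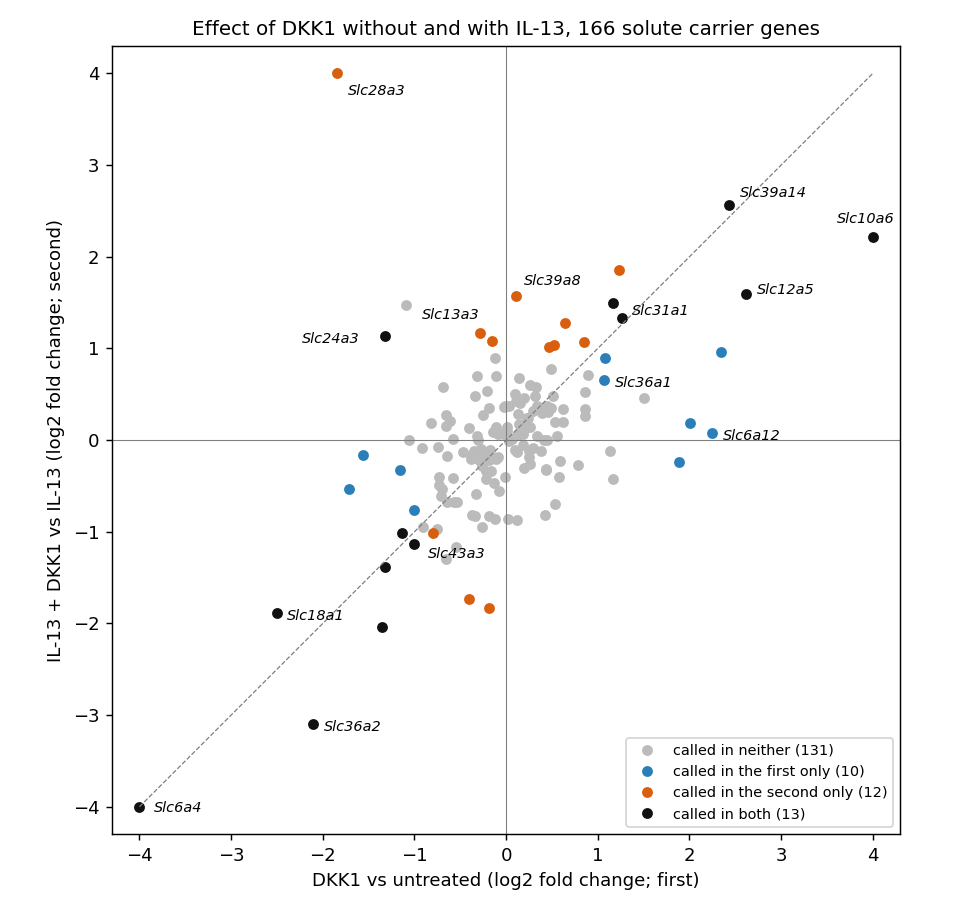
Log2 fold change of DKK1 against untreated cells (x axis) and of IL-13 + DKK1 against IL-13 (y axis) for 166 members, 1 point a gene, with called genes coloured and the dashed line where both are equal. Slc39a14, Slc31a1, Slc12a5 and Slc36a2 lay far from 0 on both axes, Slc39a8 and Slc13a3 on the y axis, and Slc24a3 had opposite signs. Values beyond 4 in size (Slc10a6, Slc28a3 and Slc6a4) are drawn at the edge.

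Calls among the metal carriers were mostly to the higher side. Of the 26 tested, DKK1 alone increased 4 (15.4%) and decreased none, beside 5.18% of all tested genes higher and 6.46% lower. IL-13 + DKK1 against untreated cells increased 6 and decreased 1 (23.1% and 3.85%, beside 5.24% and 6.59%). Adding DKK1 to IL-13 increased 4 (15.4%) and decreased none, beside 4.66% and 6.10%. The median log2 fold change of the 26 was 0.13, 0.15 and 0.16 in these comparisons, beside -0.04, -0.01 and 0.00 over all genes tested. IL-13 alone increased 1 and decreased 1 (3.85% each, beside 4.64% and 3.49% of all tested genes). The 26 include the pseudogene Slc39a1-ps. At the adjusted p alone, without the limit on the fold, DKK1 placed 12 of the 26 higher and 5 lower, beside 22.6% of all tested genes higher and 45.6% in either direction.

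Slc39a14 (ZIP14; chromosome 14, 70540678 to 70588914, minus strand, GRCm39) imports zinc, iron and manganese, and had the smallest adjusted p of all members under DKK1, both without and with IL-13. Its level was 16.7, 15.9 and 15.3 CPM in untreated cells, 11.6, 10.7 and 13.1 with IL-13, 86.0, 88.3 and 85.3 with DKK1 and 73.2, 70.3 and 67.4 with IL-13 + DKK1. The 6 libraries with DKK1 all lay above the 6 without it. DKK1 upregulated it by 2.43 ± 0.06 on the log2 scale (SE; 5.41-fold; adjusted p = 3.35e-18), and by 2.57 ± 0.07 when IL-13 was present (adjusted p = 4.44e-18). IL-13 alone gave -0.43 ± 0.07 log2 (adjusted p = 2.66e-05), short of the limit on the fold. The change of the DKK1 effect with IL-13 was 0.13 ± 0.09 log2, with a 95% interval of -0.05 to 0.32.

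Slc39a8 (ZIP8; chromosome 3, 135531040 to 135594333, plus strand), the closest relative of Slc39a14 among the importers of zinc and manganese, had another pattern. It stood at 10.4, 9.74 and 11.9 CPM in untreated cells, 7.99, 8.68 and 7.42 with IL-13, 11.1, 12.3 and 11.2 with DKK1 and 25.2, 23.9 and 22.8 with IL-13 + DKK1. The 3 libraries with IL-13 + DKK1 were above all others, and the untreated and DKK1 libraries overlapped. DKK1 alone gave 0.11 ± 0.10 log2 (adjusted p = 0.37), whereas DKK1 on top of IL-13 increased Slc39a8 by 1.58 ± 0.09 (adjusted p = 5.59e-12). The difference between these effects was itself called, at 1.46 ± 0.13 (adjusted p = 3.09e-08).

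Both copper carriers rose with DKK1. Slc31a1 (CTR1; chromosome 4, 62278085 to 62320861, plus strand), the copper importer of the cell surface, stood at 124, 127 and 123 CPM in untreated cells, 116, 106 and 118 with IL-13, 309.7, 282 and 302 with DKK1 and 293, 271 and 289.6 with IL-13 + DKK1. Here too the 6 libraries with DKK1 were separate from the 6 without. The increase was 1.26 ± 0.05 log2 without IL-13 (adjusted p = 9.42e-16) and 1.33 ± 0.05 with it (adjusted p = 5.33e-16). Slc31a2 (CTR2; chromosome 4, 62180799 to 62220050, plus strand), its neighbour on the same strand and a copper carrier of intracellular membranes, stood at 66.4, 63.7 and 61.3 CPM in untreated cells, 99.5, 96.9 and 100.3 with IL-13, 138, 134 and 131 with DKK1 and 179, 185 and 188 with IL-13 + DKK1. Its 4 groups did not overlap and lay in the order untreated, IL-13, DKK1, IL-13 + DKK1. DKK1 increased it by 1.07 ± 0.04 log2 (adjusted p = 1.36e-15) and IL-13 + DKK1 by 1.53 ± 0.04 (adjusted p = 3.27e-18), both against untreated cells. Scaled by library size alone, the increase with DKK1 was 0.95 log2, just under the limit on the fold.

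Among the zinc exporters, Slc30a4 (ZnT4; chromosome 2, 122523004 to 122544845, minus strand), which loads zinc into vesicles, followed IL-13. The libraries read 13.1, 13.2 and 12.8 CPM in untreated cells, 46.1, 45.7 and 51.5 with IL-13, 9.94, 9.36 and 7.60 with DKK1 and 27.4, 31.1 and 30.8 with IL-13 + DKK1. The 4 groups were apart from each other, with DKK1 lowest and IL-13 highest. IL-13 increased it by 1.87 ± 0.08 log2 on its own (adjusted p = 5.37e-14) and by 1.73 ± 0.09 on top of DKK1 (adjusted p = 8.84e-13). DKK1 gave -0.54 ± 0.09 without IL-13 (adjusted p = 4.72e-05) and -0.68 ± 0.08 with IL-13 (adjusted p = 1.44e-07), neither past the limit on the fold. Slc30a1 (ZnT1), which exports zinc from the cell, went from 44.8 ± 2.33 CPM in untreated cells to 35.7 ± 0.607 with DKK1 and 32.5 ± 1.14 in cells given both (SD, n = 3). Neither change passed the limit on the fold.

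The zinc importer Slc39a4 (ZIP4; chromosome 15, 76496580 to 76504172, minus strand), best known from the gut, was decreased by IL-13. Its values were 36.6, 31.2 and 32.7 CPM in untreated cells, 17.9, 12.8 and 12.5 with IL-13, 40.7, 30.9 and 35.8 with DKK1 and 22.4, 19.2 and 19.8 with IL-13 + DKK1. The IL-13 libraries lay below those of untreated cells and of DKK1, which overlapped. IL-13 gave -1.22 ± 0.12 log2 (adjusted p = 1.27e-08) alone and -0.81 ± 0.11 on top of DKK1 (adjusted p = 4.21e-06), the latter short of the limit on the fold. Slc39a1 (ZIP1), the ZIP gene with the highest level per length, was at 174 ± 3.56 CPM in untreated cells and 267 ± 7.33 CPM with DKK1 (SD, n = 3), 0.62 ± 0.03 log2 and short of the limit on the fold. The low Slc39a12 (ZIP12) went from 0.305 CPM in untreated cells to 0.685 with DKK1 and 1.57 in cells given both. Its call with DKK1 (1.16 ± 0.38 log2, adjusted p = 0.015) was lost without untreated replicate 3 (0.96, adjusted p = 0.064), while the call with both (2.35 ± 0.36, adjusted p = 9.57e-06) was not lost without any single library.

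**Figure D3:**
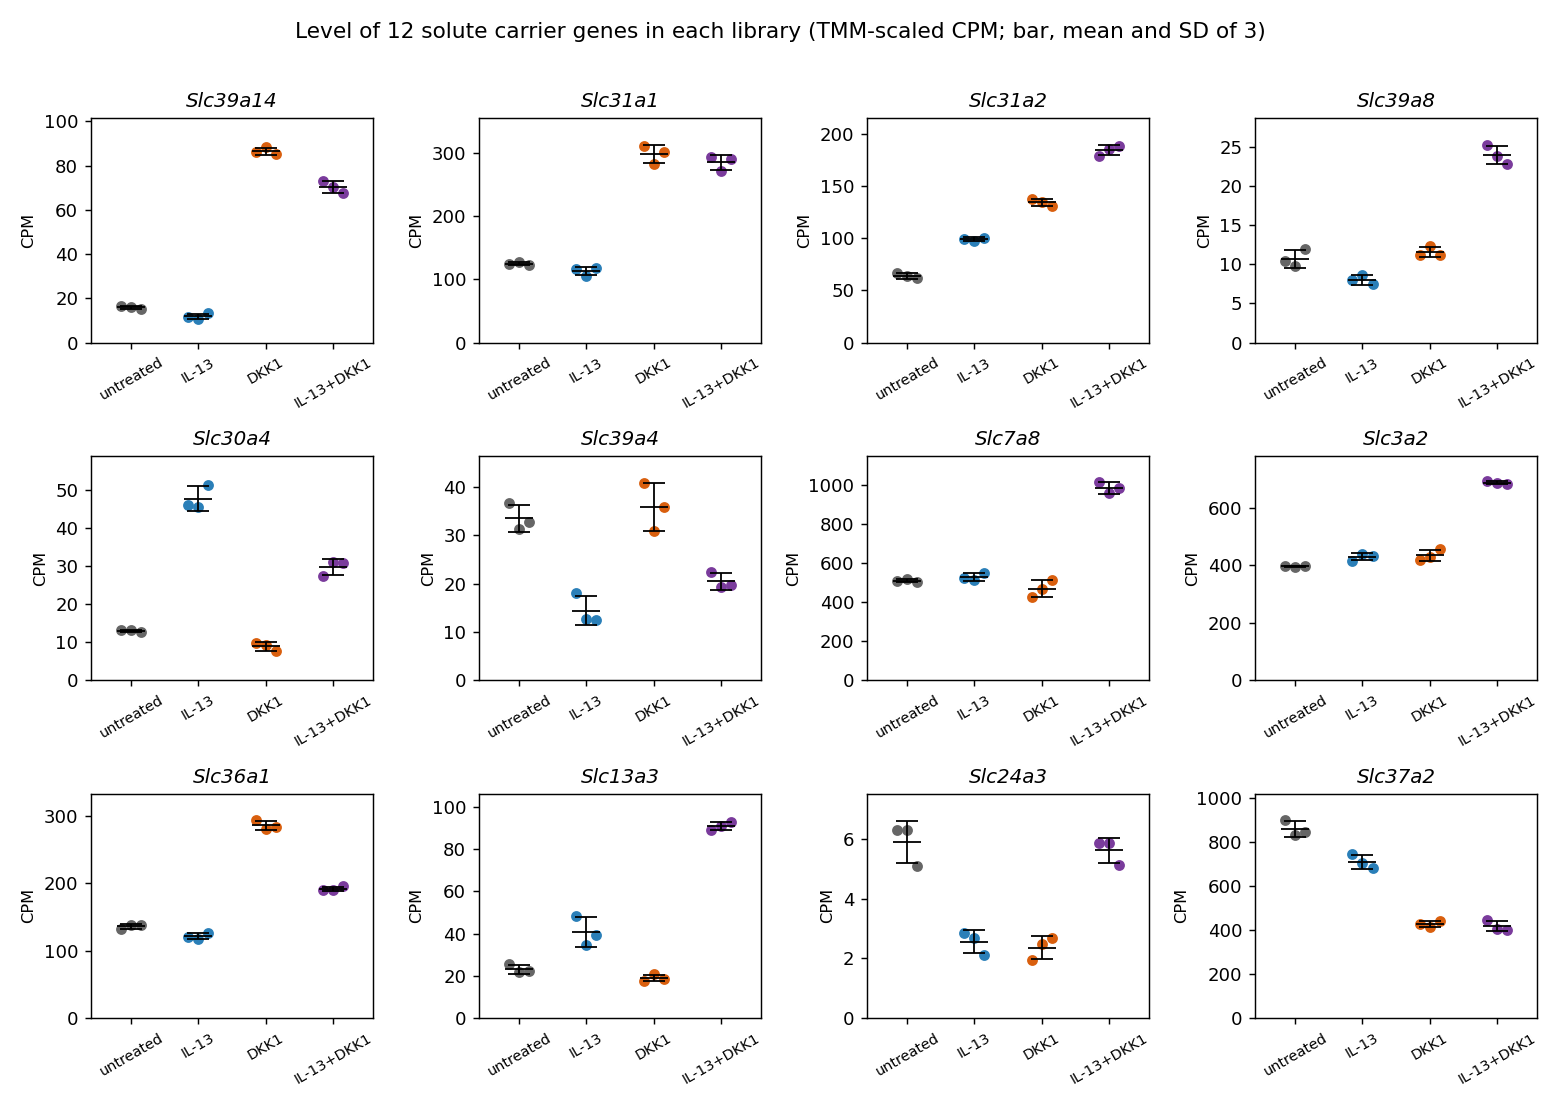
Level in CPM (y axis, from 0) of 12 members in each of the 12 libraries, grouped by treatment (x axis), with the mean and SD of 3 libraries in black. Slc39a14 and Slc31a1 separate the libraries with DKK1 from those without, Slc30a4 those with IL-13, and Slc39a8, Slc7a8, Slc3a2 and Slc13a3 are highest with IL-13 + DKK1.

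Promoter sequence was read for the members called with DKK1, alone or on top of IL-13. RefSeq promoters (250 bases before to 50 bases after a transcription start) were found for 134 of the 180 members, and were placed on GRCm39 by exact match. The 4 motifs searched on both strands were the E-box CACGTG, an ATF4-type element TGATGNAA, the AP-1 site TGANTCA and a metal response element written as TGCGCNC or TGCACNC, where matches of different motifs may share their end letters. Of the 18 genes with a promoter that were called higher with DKK1, alone or with IL-13, 6 (33.3%) held an E-box, beside 16.4% of all 134 members and 8.09% of all 27025 genes in the table. A gene with several promoters had more chances of a match. Counted per promoter, the E-box was in 22.6% of 31 for the higher genes, 12.6% of 183 for members and 7.15% of 32851 for all genes. Of the 10 genes with a promoter called lower, none held an E-box (Slc24a3 counts in both directions). At the shares of members and of all genes, a list of 10 may hold none. A metal response element was in 22.2% of the higher genes, 50% of the lower genes, 41.8% of members and 28.2% of all genes. The AP-1 site was in 16.7% of the higher genes, 30% of the lower genes, 8.21% of members and 8.97% of all genes. The ATF4-type element was in 11.1% of the higher genes, none of the lower ones, 4.48% of members and 4.51% of all genes. A match describes letters only and not a binding event. The promoters of Slc31a2, Slc36a1, Slc12a7, Slc13a3 and Slc39a8 are printed because they carry the E-box (in capitals; that of the low Slc12a5 also holds one and is not shown), and that of Slc31a1 because it rose like its neighbour Slc31a2 and holds none of the 4 motifs. Bases are counted from the start site, with 1 as the first transcribed base, and each sequence reads 5′ to 3′ on the gene's strand.
Slc31a2 (chr4:62204416-62204715, plus strand, E-box from base 1): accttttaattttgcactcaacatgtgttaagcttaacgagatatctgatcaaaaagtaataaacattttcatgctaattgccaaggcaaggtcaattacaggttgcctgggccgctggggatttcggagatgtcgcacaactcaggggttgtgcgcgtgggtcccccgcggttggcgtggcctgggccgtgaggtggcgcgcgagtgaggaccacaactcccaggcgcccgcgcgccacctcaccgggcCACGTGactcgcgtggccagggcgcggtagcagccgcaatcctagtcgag
Slc36a1 (chr11:55094916-55095215, plus strand, E-boxes from bases -31 and -3): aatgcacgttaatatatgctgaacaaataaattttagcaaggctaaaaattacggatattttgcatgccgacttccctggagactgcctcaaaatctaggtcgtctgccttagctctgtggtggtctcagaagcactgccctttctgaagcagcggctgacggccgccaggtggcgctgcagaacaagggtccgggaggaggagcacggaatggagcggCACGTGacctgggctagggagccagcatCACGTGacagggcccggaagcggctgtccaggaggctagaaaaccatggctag
Slc12a7 (chr13:73911529-73911828, plus strand, E-box from base -1): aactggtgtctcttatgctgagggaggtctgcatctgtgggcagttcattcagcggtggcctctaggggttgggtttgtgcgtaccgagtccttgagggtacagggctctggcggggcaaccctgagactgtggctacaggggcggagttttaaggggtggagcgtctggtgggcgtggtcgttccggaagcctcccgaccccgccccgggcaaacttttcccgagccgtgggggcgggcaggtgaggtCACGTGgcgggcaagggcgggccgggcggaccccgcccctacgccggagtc
Slc13a3 (chr2:165315068-165315367, minus strand, E-box from base -154): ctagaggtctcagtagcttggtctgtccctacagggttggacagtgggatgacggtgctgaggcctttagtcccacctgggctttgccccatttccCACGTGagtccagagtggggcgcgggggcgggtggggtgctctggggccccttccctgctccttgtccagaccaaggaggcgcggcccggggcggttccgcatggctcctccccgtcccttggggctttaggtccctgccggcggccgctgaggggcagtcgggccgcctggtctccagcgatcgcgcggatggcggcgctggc
Slc39a8, second start (chr3:135531168-135531467, plus strand, E-box from base -71): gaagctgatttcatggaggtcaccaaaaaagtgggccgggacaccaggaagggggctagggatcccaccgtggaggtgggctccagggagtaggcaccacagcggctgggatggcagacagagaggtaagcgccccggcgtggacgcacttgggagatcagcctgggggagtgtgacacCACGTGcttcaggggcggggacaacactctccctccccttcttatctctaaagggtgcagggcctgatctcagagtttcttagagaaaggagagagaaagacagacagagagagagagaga
Slc31a1 (chr4:62278688-62278987, plus strand, no motif): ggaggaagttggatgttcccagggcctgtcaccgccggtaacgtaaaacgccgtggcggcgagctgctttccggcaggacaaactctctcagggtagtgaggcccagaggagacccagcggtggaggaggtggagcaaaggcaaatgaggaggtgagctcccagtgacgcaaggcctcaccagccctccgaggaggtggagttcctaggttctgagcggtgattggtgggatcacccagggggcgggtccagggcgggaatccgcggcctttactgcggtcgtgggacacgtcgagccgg

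Amino acid carriers went in both directions. Of the 31 tested in families numbered for amino acids, DKK1 increased 3 and decreased 3 (9.68% each, beside 5.18% and 6.46% of all tested genes). Adding IL-13 to DKK1 increased 4 and decreased 1 (12.9% and 3.23%, beside 3.22% and 2.29%). Not all of these carry amino acids: Slc6a4 takes up serotonin, Slc6a12 betaine and GABA, and Slc43a3 purine nucleobases. At the adjusted p alone DKK1 placed 13 of the 31 higher and 10 lower, beside the same 22.6% higher and 45.6% in either direction.

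Slc36a1 (PAT1; chromosome 11, 55095146 to 55127156, plus strand) carries small amino acids out of the lysosome with protons. It stood at 132, 138 and 138 CPM in untreated cells, 121, 117 and 126 with IL-13, 294, 279.7 and 283 with DKK1 and 189, 189 and 195 with IL-13 + DKK1. The DKK1 libraries were highest, those with both lay between, and the untreated and IL-13 libraries were lowest with no overlap between them. DKK1 increased it by 1.07 ± 0.04 log2 (adjusted p = 5.29e-16; 0.95 when scaled by library size alone, under the limit on the fold). With IL-13 present the DKK1 effect was 0.66 ± 0.04 (adjusted p = 2.65e-12). Slc36a2 (PAT2), a carrier of the same family, was lower in the same libraries. It stood at 6.53, 7.72 and 7.77 CPM in untreated cells, 6.08, 5.27 and 6.11 with IL-13, 2.75, 1.42 and 0.914 with DKK1 and 0.709, 0.889 and 0.422 with IL-13 + DKK1. The libraries with DKK1 lay below all without it. DKK1 decreased it by 2.10 ± 0.25 log2 (adjusted p = 3.67e-07) and, with IL-13, by 3.10 ± 0.28 (adjusted p = 5.95e-09). IL-13 added to DKK1 lowered it further by 1.33 ± 0.32 (adjusted p = 0.0019), but without DKK1 replicate 1 this was -0.80 and no longer called.

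Slc7a8 (LAT2; chromosome 14, 54959630 to 55019649, minus strand), a light chain that exchanges neutral amino acids, was highest with IL-13 + DKK1. The libraries read 506, 519 and 503 CPM in untreated cells, 522, 514 and 549 with IL-13, 425, 469 and 511 with DKK1 and 1014, 956 and 982 with IL-13 + DKK1. The 3 libraries with both agents were far above the other 9, and the untreated group overlapped with IL-13 and with DKK1. IL-13 added to DKK1 increased Slc7a8 by 1.07 ± 0.05 log2 (adjusted p = 1.30e-13; 0.99 without DKK1 replicate 1), while IL-13 alone gave 0.05 ± 0.05 (adjusted p = 0.39). DKK1 added to IL-13 gave 0.90 ± 0.05 and DKK1 alone -0.12 ± 0.05. The difference was 1.02 ± 0.07 (adjusted p = 2.01e-10). It kept an adjusted p under 0.05 whichever library was left out, but was 0.93 log2 without DKK1 replicate 1 and between 0.99 and 0.998 without DKK1 replicate 2, IL-13 replicate 2 or IL-13 + DKK1 replicates 1 or 3.

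The heavy chain Slc3a2 (4F2hc; chromosome 19, 8684245 to 8701108, minus strand), which brings Slc7a8 and other light chains to the surface, was also highest with IL-13 + DKK1. Its libraries read 397, 393 and 398 CPM in untreated cells, 416, 439 and 434 with IL-13, 419.8, 429 and 457 with DKK1 and 695, 688 and 682 with IL-13 + DKK1. The libraries with both agents stood above all others and the IL-13 and DKK1 groups overlapped. IL-13 + DKK1 gave 0.80 ± 0.04 log2 against untreated cells (adjusted p = 2.52e-14) and the change of the DKK1 effect with IL-13 was 0.54 ± 0.05 (adjusted p = 2.82e-08), both under the limit on the fold. The other light chains went their own ways. Slc7a5 (LAT1), at 6.52 ± 1.13 CPM in untreated cells, was 9.84 ± 1.08 with IL-13, 4.16 ± 0.404 with DKK1 and 8.70 ± 0.752 in cells given both (SD, n = 3). Adding IL-13 to DKK1 increased it by 1.06 ± 0.14 log2 (adjusted p = 2.31e-06; 0.97 without DKK1 replicate 1). Slc7a7, a light chain that exports cationic amino acids, was at 64.5, 59.3 and 57.6 CPM in untreated cells, 35.7, 36.98 and 39.1 with IL-13, 83.7, 80.6 and 85.6 with DKK1 and 76.2, 76.8 and 73.2 with IL-13 + DKK1. It was lowest with IL-13 alone, in libraries that overlapped with no other group. DKK1 added to IL-13 increased it by 1.02 ± 0.05 (adjusted p = 2.96e-13), which was 0.99 without IL-13 replicate 1 and 0.97 scaled by library size alone.

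Family 38 holds sodium-coupled carriers of neutral amino acids. Of its 7 tested members, 6 were higher with DKK1 at the adjusted p (beside 22.6% of all tested genes), none past the limit on the fold, and the median was 0.33 log2. IL-13 alone decreased the low Slc38a4, which had 34, 5 and 6 counts in untreated cells and 0, 4 and 0 with IL-13 (adjusted p = 0.032). This call was lost without untreated replicate 1 or IL-13 replicates 1 or 3 (adjusted p from 0.11 to 0.30). It was also lost under DESeq2's Wald test (adjusted p = 0.15) and in a fit with the replicate number as a block (adjusted p = 0.05002). Slc38a2, the member of this family that amino acid starvation induces, was at 91.0, 89.7 and 96.4 CPM in untreated cells, 82.1, 65.1 and 74.6 with IL-13, 151, 106 and 121 with DKK1 and 112, 88.8 and 86.8 with IL-13 + DKK1. The DKK1 libraries were spread widely, from 106 to 151 CPM, and the change was 0.45 ± 0.10 log2 (adjusted p = 9.46e-04). Slc38a1 gave 0.24 ± 0.05 log2 and Slc38a10 0.33 ± 0.04. The glutamine carrier Slc1a5 (ASCT2) was at 39.1 ± 1.89 CPM in untreated cells and 62.8 ± 2.59 with IL-13 (SD, n = 3; 0.68 ± 0.05 log2, adjusted p = 7.95e-10), short of the limit on the fold, and stood at 36.04 ± 0.554 with DKK1 and 34.5 ± 1.73 in cells given both.

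Slc6a6 and Slc43a2, the members of the amino acid families with the highest levels per length in untreated cells, were not called with either agent alone. Slc6a6 gave -0.38 ± 0.04 log2 with DKK1 (adjusted p = 4.60e-08) and -0.37 ± 0.04 with IL-13 (adjusted p = 8.96e-08). Slc43a2 (LAT4) was at 1085, 1092 and 1089 CPM in untreated cells, 696, 643 and 669 with IL-13, 941, 978 and 961 with DKK1 and 874, 828 and 849 with IL-13 + DKK1. It was lowest with IL-13 alone, -0.70 ± 0.03 log2 below untreated cells (adjusted p = 2.40e-13), and no groups overlapped. Slc6a8, the creatine transporter, was at 155 ± 4.78 CPM in untreated cells and 93.3 ± 2.24 with DKK1 (SD, n = 3), short of the limit on the fold. Its mean with IL-13 was 160 CPM.

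Slc43a3 (chromosome 2, 84766862 to 84788865, plus strand), the nucleobase carrier, was changed by both agents in opposite directions. It stood at 8.83, 10.9 and 11.4 CPM in untreated cells, 27.2, 26.9 and 28.9 with IL-13, 4.53, 5.44 and 5.48 with DKK1 and 13.4, 13.1 and 11.4 with IL-13 + DKK1. The IL-13 libraries were highest and the DKK1 libraries lowest, and the group with both overlapped with the untreated group. IL-13 increased it by 1.42 ± 0.10 log2 alone (adjusted p = 1.38e-10) and by 1.30 ± 0.11 on top of DKK1 (adjusted p = 4.93e-09). DKK1 decreased it by 1.13 ± 0.10 with IL-13 (adjusted p = 2.85e-09) and by 1.01 ± 0.11 without (adjusted p = 1.68e-07). The latter was -0.91 without DKK1 replicate 1, -0.93 without untreated replicate 3 and -0.97 without untreated replicate 2, each short of the limit on the fold.

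Slc6a12 (BGT1), which imports betaine and GABA, was at 1.93, 1.81 and 2.12 CPM in untreated cells, 6.44, 3.65 and 4.50 with IL-13, 16.04, 5.50 and 6.27 with DKK1 and 7.36, 4.47 and 3.64 with IL-13 + DKK1. DKK1 replicate 1 stood far above the other libraries of its group. DKK1 increased it by 2.25 ± 0.34 log2 (adjusted p = 9.30e-06; 1.60 without DKK1 replicate 1) and IL-13 by 1.31 ± 0.35 (adjusted p = 0.0037), while DKK1 on top of IL-13 gave 0.08 ± 0.32 (adjusted p = 0.87). The serotonin transporter Slc6a4, which platelets also use, had 15, 16 and 11 counts in untreated cells, 8, 8 and 22 with IL-13, 0, 0 and 2 with DKK1 and 0, 0 and 0 in cells given both. The summed count with DKK1 was 18.6 times lower than in untreated cells (95% interval 4.84 to 159, counting error only). With IL-13 + DKK1 it was 14.5-fold lower when 3 counts over the group were taken as the floor. The 95% interval of that ratio without the floor began at 11.3 (counting error only).

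Among the carriers of carboxylates, 1 of 11 tested rose with IL-13 + DKK1 and 1 fell, against untreated cells (9.09% each, beside 5.24% and 6.59% of all tested genes). Slc13a3 (NaDC3; chromosome 2, 165246948 to 165315268, minus strand) takes up succinate, other dicarboxylates of the citric acid cycle and related compounds with sodium. It stood at 25.6, 21.6 and 22.3 CPM in untreated cells, 48.2, 34.6 and 39.2 with IL-13, 17.7, 20.7 and 18.6 with DKK1 and 89.1, 91.0 and 92.7 with IL-13 + DKK1. The libraries with both agents were above all others, IL-13 lay next, and the DKK1 and untreated groups did not overlap. IL-13 increased it by 2.26 ± 0.09 log2 when DKK1 was present (adjusted p = 2.77e-14) and by 0.81 ± 0.09 when it was not (adjusted p = 1.78e-07). DKK1 gave -0.29 ± 0.10 without IL-13 (adjusted p = 0.019) and 1.16 ± 0.09 with it (adjusted p = 1.54e-10), and the difference was 1.45 ± 0.13 (adjusted p = 1.82e-08).

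Slc16a6 (MCT7) rose with DKK1 on top of IL-13, and stood at 49.9, 51.2 and 47.8 CPM in untreated cells, 28.3, 33.9 and 31.1 with IL-13, 67.8, 75.1 and 70.1 with DKK1 and 61.3, 61.6 and 68.2 with IL-13 + DKK1. It was lowest with IL-13 alone, next in untreated cells, and highest in the 2 groups with DKK1, which overlapped. The increase was 1.03 ± 0.06 log2 (adjusted p = 7.79e-12), but 0.97 without IL-13 replicate 1 and 0.97 without IL-13 + DKK1 replicate 3. Slc16a10 (TAT1), which despite its family number carries aromatic amino acids, was decreased by IL-13 + DKK1. Its mean was 212 ± 8.58 CPM in untreated cells, 164 ± 7.87 with IL-13, 143 ± 3.50 with DKK1 and 103 ± 3.71 in cells given both (SD, n = 3), -1.05 ± 0.04 log2 for both against none (adjusted p = 6.54e-15). The lactate carrier Slc16a1 (MCT1) stayed low, at 6.83 ± 0.219 CPM in untreated cells and 10.9 ± 1.02, 10.2 ± 1.33 and 8.23 ± 0.512 CPM with IL-13, DKK1 and both. The low Slc13a2 (NaDC1), a sodium-coupled carrier of dicarboxylates best known from the kidney, had 42, 18 and 30 counts in untreated cells, 20, 6 and 24 with IL-13, 8, 12 and 4 with DKK1 and 2, 16 and 19 with IL-13 + DKK1. DKK1 against untreated cells gave -1.71 ± 0.61 log2 (adjusted p = 0.026), a call that was lost without untreated replicate 1 (adjusted p = 0.11) or 3 (adjusted p = 0.055) and without DKK1 replicate 1 (adjusted p = 0.077) or 3 (adjusted p = 0.12).

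Of 11 sugar carriers tested, DKK1 decreased Slc2a3 (9.09%, beside 6.46% of all tested genes). IL-13 increased Slc2a6 and the low Slc45a3 (18.2%, beside 4.64%). Slc2a3 (GLUT3; chromosome 6, 122704768 to 122778599, minus strand), a glucose importer of high affinity, was at 16.8, 16.8 and 16.8 CPM in untreated cells, 13.3, 13.1 and 10.6 with IL-13, 7.98, 7.57 and 7.02 with DKK1 and 11.02, 8.79 and 9.70 with IL-13 + DKK1. All untreated libraries lay above all others, and DKK1 was lowest. The decrease with DKK1 was 1.16 ± 0.11 log2 (adjusted p = 7.00e-09). Slc2a6 (GLUT6; chromosome 2, 26911226 to 26918092, minus strand), a lysosomal hexose carrier, stood at 27.3, 25.9 and 25.2 CPM in untreated cells, 52.5, 50.9 and 58.7 with IL-13, 52.7, 42.03 and 40.4 with DKK1 and 42.05, 46.01 and 46.04 with IL-13 + DKK1. All 9 treated libraries were above the untreated ones. IL-13 increased it by 1.05 ± 0.08 log2 (adjusted p = 5.67e-10; 0.99 without IL-13 replicate 3) and DKK1 gave 0.79 ± 0.08 (adjusted p = 4.81e-08), under the limit on the fold. IL-13 + DKK1 gave 0.78 ± 0.08 against untreated cells. Slc2a9 (GLUT9), a carrier of urate, rose with DKK1 on top of IL-13. It was at 29.2 ± 1.62 CPM in untreated cells, 27.2 ± 2.35 with IL-13, 45.4 ± 2.27 with DKK1 and 65.9 ± 3.25 in cells given both (SD, n = 3), 1.27 ± 0.06 log2 for DKK1 on top of IL-13 (adjusted p = 3.46e-13).

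Slc37a2 (chromosome 9, 37138881 to 37167112, minus strand) exchanges glucose 6-phosphate for phosphate and had the highest level per length of the members called under DKK1. It stood at 901, 831 and 843 CPM in untreated cells, 745, 703 and 683 with IL-13, 427, 412 and 440.4 with DKK1 and 445, 406 and 401 with IL-13 + DKK1. The libraries with DKK1 were below all without it, and the 2 groups with DKK1 overlapped. DKK1 decreased it by 1.01 ± 0.04 log2 (adjusted p = 2.58e-14). This lies at the limit on the fold, and was -0.97 without DKK1 replicate 2, -0.97 without untreated replicate 1 and -0.99 without DKK1 replicate 1. With IL-13 present the DKK1 effect was -0.77 ± 0.04 (adjusted p = 2.91e-12). The phosphate importer Slc20a1 gave 0.12 ± 0.09 log2 with DKK1 (adjusted p = 0.31; 95% interval -0.07 to 0.30).

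The 2 lysosomal carriers of peptides and histidine moved apart. Slc15a3 (PHT2) was at 251, 219 and 216 CPM in untreated cells, 407, 397 and 401 with IL-13, 423, 402 and 420.5 with DKK1 and 512, 513 and 501 with IL-13 + DKK1. All treated libraries lay above the untreated ones, and those with both were highest. IL-13 + DKK1 increased it by 1.15 ± 0.04 log2 (adjusted p = 2.18e-15). Slc15a4 (PHT1), known as a platform for Toll-like receptor signaling in the endolysosome, was at 105, 98.8 and 103 CPM in untreated cells, 62.0, 59.2 and 65.4 with IL-13, 63.8, 60.1 and 64.9 with DKK1 and 43.6, 41.7 and 43.6 with IL-13 + DKK1. It was highest in untreated cells and lowest with both, with IL-13 and DKK1 overlapping between. IL-13 + DKK1 decreased it by 1.25 ± 0.05 log2 (adjusted p = 2.13e-15).

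**Figure D4:**
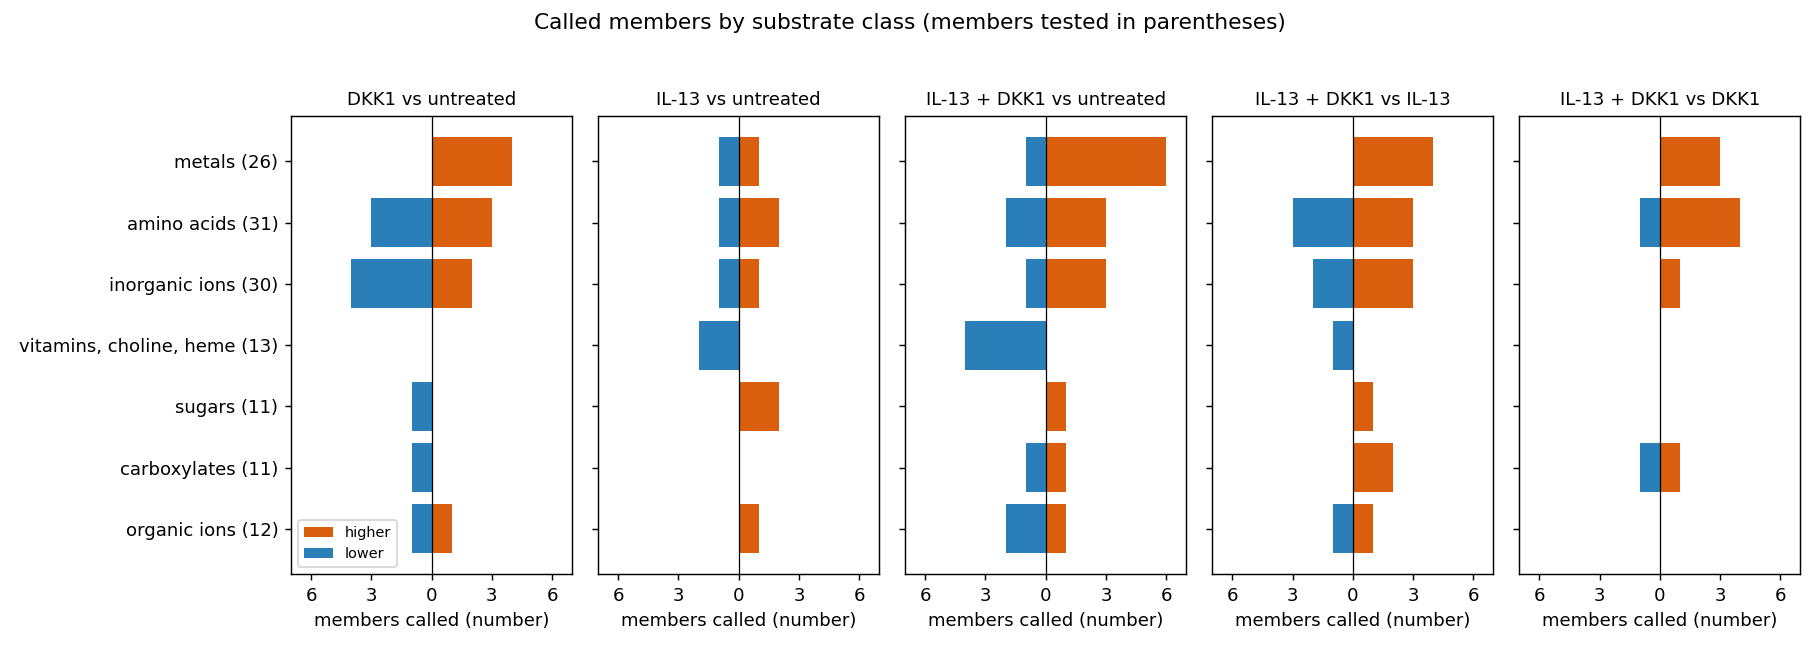
Number of members called higher (right of 0) or lower (left of 0) in each of 5 comparisons, by substrate class, with the number tested in parentheses. Metal carriers were called up more often than down in 4 of the 5 panels, and the class of vitamins, choline and heme had calls to the lower side only. Of all tested genes, 3.22% to 5.24% were called higher and 2.29% to 6.59% lower in these comparisons.

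Among the 30 tested members of the inorganic ion families, DKK1 increased 2 and decreased 4 (6.67% and 13.3%, beside 5.18% and 6.46% of all tested genes). Of the 4 lower, Slc9a3r2 is an adaptor and no carrier. Slc12a7 (KCC4; chromosome 13, 73881213 to 73964874, plus strand) exports potassium with chloride. It stood at 96.8, 90.9 and 90.0 CPM in untreated cells, 147, 129 and 134 with IL-13, 166, 167 and 169 with DKK1 and 295, 287 and 284 with IL-13 + DKK1. All 4 groups were apart from each other, in the order untreated, IL-13, DKK1, IL-13 + DKK1. IL-13 + DKK1 increased it by 1.64 ± 0.04 log2 (adjusted p = 5.79e-18), and among the members Slc31a2 alone had a smaller adjusted p in that comparison. DKK1 gave 0.85 ± 0.04 without IL-13 and 1.07 ± 0.04 with it (adjusted p = 6.27e-15). Its relative Slc12a5 (KCC2), known from neurons, was much lower at 0.684 CPM in untreated cells, 4.21 with DKK1 and 3.24 in cells given both. DKK1 increased it by 2.62 ± 0.30 log2 (adjusted p = 1.86e-07).

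Slc9a7 (NHE7; chromosome X, 19965087 to 20158231, minus strand), a proton exchanger of the trans-Golgi network, was decreased. It was at 81.0, 90.5 and 97.4 CPM in untreated cells, 56.8, 53.2 and 60.2 with IL-13, 43.5, 37.9 and 40.7 with DKK1 and 28.8, 27.5 and 28.3 with IL-13 + DKK1. The 4 groups did not overlap, and the libraries with both agents were lowest. DKK1 gave -1.14 ± 0.07 log2 (adjusted p = 2.29e-12) and IL-13 + DKK1 -1.67 ± 0.07 (adjusted p = 4.00e-15). DKK1 on top of IL-13 gave -1.01 ± 0.07, which lies at the limit on the fold and was -0.97 without IL-13 replicate 3 and -0.99 without IL-13 + DKK1 replicate 2.

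Slc24a3 (NCKX3; chromosome 2, 145009674 to 145484086, plus strand), an exchanger of sodium for calcium and potassium, showed the largest called interaction among members with a mean of 100 counts or more. It was at 6.31, 6.29 and 5.09 CPM in untreated cells, 2.86, 2.69 and 2.13 with IL-13, 1.93, 2.47 and 2.68 with DKK1 and 5.85, 5.88 and 5.11 with IL-13 + DKK1. Either agent alone placed all libraries below the untreated ones, while those with both overlapped with untreated cells. IL-13 decreased it by 1.20 ± 0.16 log2 (adjusted p = 2.18e-06) and DKK1 by 1.32 ± 0.17 (adjusted p = 7.23e-07). DKK1 on top of IL-13 increased it by 1.13 ± 0.16 (adjusted p = 4.70e-06), and the difference between the DKK1 effects was 2.46 ± 0.23 (adjusted p = 4.24e-08). For both agents against none the change was -0.07 ± 0.15 (95% interval -0.39 to 0.24). The related Slc24a5, known from pigment cells, had means of 3.33, 2.29, 1.13 and 2.05 CPM in untreated cells, IL-13, DKK1 and both, with an interaction of 1.40 ± 0.34 (adjusted p = 0.0035).

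In the families that carry vitamins, choline, folate and heme, none of 13 tested members was called higher in any comparison. Of all tested genes 2.12% to 5.24% were, shares at which a class this small may hold none. IL-13 + DKK1 decreased 4 against untreated cells (30.8%, beside 6.59% of all tested genes). They were the choline carriers Slc44a1 and Slc44a2, the lysosomal carrier Slc46a3 and the low ascorbate carrier Slc23a1. The call of Slc23a1 was lost without untreated replicate 1 (adjusted p = 0.061) or IL-13 + DKK1 replicate 3 (adjusted p = 0.052). Slc44a2 was at 102, 102 and 108 CPM in untreated cells, 77.0, 79.4 and 78.9 with IL-13, 63.3, 57.9 and 57.6 with DKK1 and 37.8, 38.5 and 40.6 with IL-13 + DKK1. The 4 groups did not overlap, and those with both agents were lowest. The decrease was 1.41 ± 0.05 log2 for both against none (adjusted p = 2.66e-16). DKK1 on top of IL-13 gave -1.01 ± 0.05, and -0.99 without IL-13 + DKK1 replicate 1 and -0.999 without IL-13 + DKK1 replicate 2. Slc44a1 went from 214 ± 2.23 to 106 ± 4.73 CPM (SD, n = 3), -1.01 ± 0.04 log2, which was -0.98 without IL-13 + DKK1 replicate 2. Slc46a3 stood at 119, 109 and 119 CPM in untreated cells, 59.6, 53.9 and 54.1 with IL-13, 69.2, 71.0 and 67.6 with DKK1 and 52.1, 52.9 and 53.9 with IL-13 + DKK1. All treated libraries lay below the untreated ones, and IL-13 alone decreased it by 1.05 ± 0.05 log2 (adjusted p = 1.08e-13). Slc48a1, the heme carrier, was at 636 ± 14.2 CPM in untreated cells and 775 ± 13.1 with IL-13 (SD, n = 3; 0.29 ± 0.03 log2, adjusted p = 3.53e-07), short of the limit on the fold, and DKK1 gave -0.04 ± 0.03 (adjusted p = 0.4; 95% interval -0.11 to 0.03).

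Of 6 nucleoside carriers tested, Slc28a3 was called higher with IL-13 + DKK1 against each other group, and Slc28a2 was called in the interaction. A single member is 16.7% of the 6, beside 3.22% to 5.24% of all tested genes called higher in those 3 comparisons. Slc28a2 (CNT2), a sodium-coupled importer of purine nucleosides, was at 10.99, 9.50 and 8.73 CPM in untreated cells, 13.4, 15.7 and 14.8 with IL-13, 14.9, 13.2 and 11.2 with DKK1 and 7.92, 7.70 and 9.22 with IL-13 + DKK1. Libraries with either agent alone lay above the rest, and the group with both overlapped with untreated cells. The DKK1 effect differed by -1.25 ± 0.16 log2 with IL-13 (adjusted p = 4.68e-06). Slc28a3 (CNT3) was at the edge of detection in 3 groups, with 0, 0 and 1 counts in untreated cells, 0, 0 and 2 with IL-13 and 0, 0 and 0 with DKK1, against 32, 20 and 24 with IL-13 + DKK1. Against DKK1 alone that is 21.7-fold higher, with 3 counts over the group as the floor. The 95% interval of that ratio without the floor began at 17.2 (counting error only). Against untreated cells the ratio of the summed counts was 73.4 (95% interval 12.8 to 2936, counting error only). Slc29a3 (ENT3), the nucleoside carrier of lysosomes, was at 112 ± 2.57 CPM in untreated cells and 155 ± 2.13 with DKK1 (SD, n = 3; 0.46 ± 0.05 log2), short of the limit on the fold.

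Several carriers of organic ions, transmitters and fatty acids changed at low levels. Slc10a6, a carrier of sulfated steroids, had 0, 0 and 0 counts in untreated cells, 0, 2 and 6 with IL-13, 25, 26 and 17 with DKK1 and 14, 12 and 14 in cells given both. With 3 counts over the untreated group taken as the floor, the rise was 25.6-fold with DKK1 and 12.9-fold with both. The 95% intervals of these ratios without the floor began at 20.2 and 9.99 (counting error only). Slc18a1 (VMAT1), which fills vesicles with amines, was at 2.17, 2.23 and 1.85 CPM in untreated cells and 0.483, 0.309 and 0.294 with DKK1. These groups did not overlap, and the change was -2.51 ± 0.31 log2 (adjusted p = 6.94e-07). Slc17a9, the vesicular ATP carrier, was at 10.3 ± 0.869 CPM in untreated cells, 8.11 ± 0.0546 with IL-13, 5.86 ± 0.626 with DKK1 and 9.25 ± 0.527 in cells given both (SD, n = 3). Slc27a6, a fatty acid carrier, rose with IL-13 from 0.262 to 1.64 CPM (2.64 ± 0.43 log2, adjusted p = 2.80e-05), and was at 0.456 CPM with both.

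**Figure D5:**
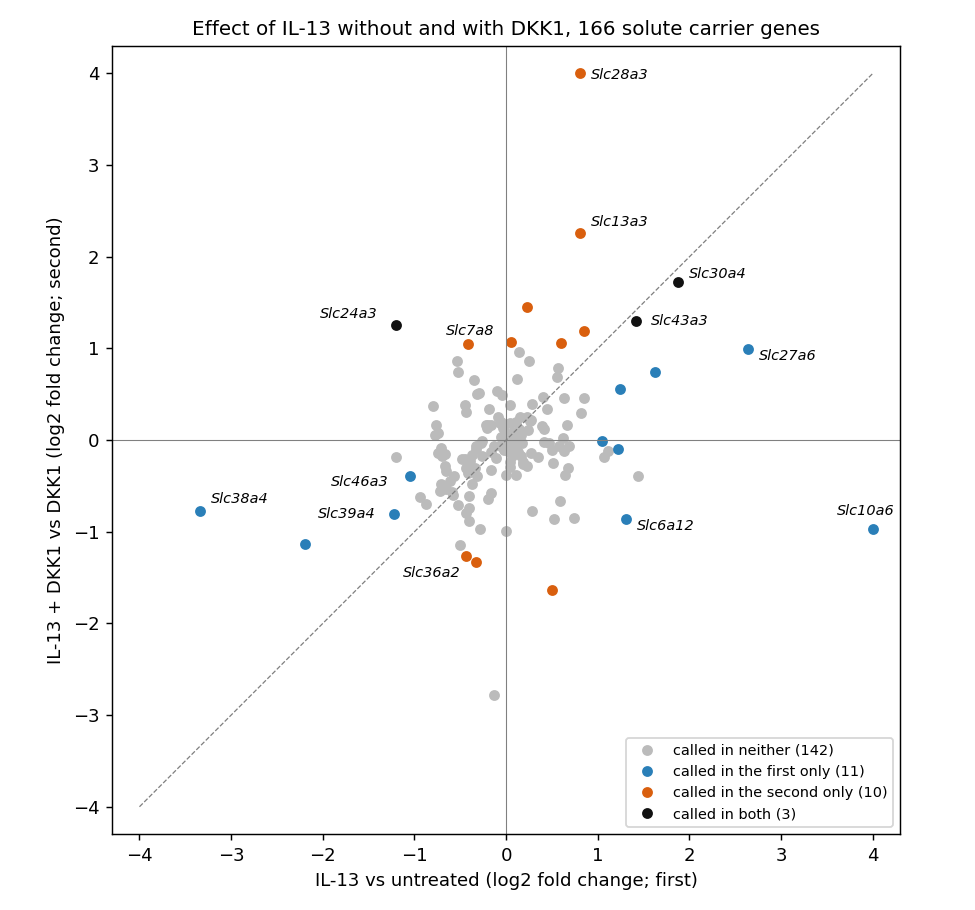
Log2 fold change of IL-13 against untreated cells (x axis) and of IL-13 + DKK1 against DKK1 (y axis) for 166 members, 1 point a gene, with called genes coloured and the dashed line where both are equal. Slc30a4 and Slc43a3 are the members called higher on both axes, Slc24a3 is lower on the x axis and higher on the y axis, and Slc10a6 and Slc28a3 are drawn at the edge of 4.

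The effect of DKK1 with IL-13 minus that without was called for 11 members, 7 higher (4.22%) and 4 lower (2.41%), beside 2.12% and 2.50% of all genes. The higher ones were Slc24a3, Slc39a8, Slc13a3, Slc24a5, Slc22a23, Slc7a8 and Slc17a9, and the lower ones Slc10a6, Slc6a12, Slc28a2 and Slc2a6. For Slc2a6 the difference was -1.06 ± 0.11 log2 (adjusted p = 2.74e-07), and -0.96 without DKK1 replicate 1 and -0.997 without IL-13 replicate 3. Slc17a9 gave 1.01 ± 0.15 (adjusted p = 3.29e-05), and between 0.89 and 0.99 without DKK1 replicate 1, untreated replicate 3 or IL-13 + DKK1 replicates 1 or 3. Slc6a12 gave -2.17 ± 0.46 (adjusted p = 0.0011).

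Transporters whose symbol in the deposited table lies outside the Slc scheme were read as a list of 30, of which 29 were tested. DKK1 increased 2 and decreased none, beside 5.18% of all tested genes higher and 6.46% lower. IL-13 increased none and decreased 2, beside 4.64% and 3.49%. Adding DKK1 to IL-13 increased 4 and decreased 1, beside 4.66% and 6.10%. The 4 were the pseudogene Mfsd4b3-ps, Mfsd4b5, Spns2 and Spns3, all low, with means from 0.472 to 4.35 CPM in cells given both. Mfsd7a rose with DKK1 by 1.49 ± 0.11 log2 (adjusted p = 1.69e-10) and had an interaction of -1.42 ± 0.16 (adjusted p = 4.99e-07), with a mean of 35.7 CPM with DKK1 and 13.9 CPM with both. Mfsd12, needed for cysteine entry into lysosomes, stood at 292 CPM with IL-13 and 127 CPM with both, -1.20 ± 0.03 log2 (adjusted p = 2.29e-17). Embigin (Emb), the chaperone that brings monocarboxylate carriers to the surface, is not counted among the 30 and stood at 129.8 CPM in untreated cells, 49.8 with IL-13, 457 with DKK1 and 156 in cells given both. DKK1 increased it by 1.82 ± 0.05 log2 (adjusted p = 2.37e-17) and IL-13 decreased it by 1.38 ± 0.06 (adjusted p = 1.39e-14).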

How the data were processed

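Reads of stranded, ribosomal RNA-depleted libraries were checked by the authors in FastQC 0.11.9 and mapped to GRCm39 (STAR 2.7.6a). Reads per gene came from featureCounts, whose version, annotation and strand setting the sources do not give, so overlapping, antisense or near-identical genes are uncertain. The authors deposited the raw counts of 17723 genes, the lowest of which reached 11 counts in its highest library, and tested them with DESeq2 1.30.0. Replicates differed by more than counting error (chi-square per gene 4.31 to 9.93).

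From the deposited counts, edgeR 4.0.16 (R 4.3.3) kept 16306 genes (filterByExpr, minimum count 10, minimum total 15), scaled by TMM (factors 0.945 to 1.043) and fitted 1 mean per group over all 12 libraries, with the quasi-likelihood test and Benjamini-Hochberg adjustment. Calls needed an adjusted p under 0.05 and a log2 fold change above 1 in size. SE is that of the log2 fold change, and SD is over 3 libraries. Alternatives were DESeq2 1.42.0, other scalings, no filter, TREAT, fits on the compared groups, a replicate block and leaving out each library; tests were tried on simulated counts. Positions and exon lengths are from GENCODE vM39, and promoters from RefSeq (GRCm38.p6 table, matched to GRCm39).

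The members and lists were chosen with earlier results of these data known. Named members were, among called members that averaged 100 counts or more and whose compared groups did not overlap, the 10 largest changes each way for DKK1 against untreated cells and for IL-13 + DKK1 against IL-13, and the 6 largest each way for the other comparisons and the interaction. To these were added the called member of each substrate class with the smallest adjusted p under DKK1, the 10 highest per length in untreated cells, and 17 members chosen for known macrophage roles. Named outside this rule, after their values were seen, were Slc12a5, Slc22a23, Slc23a1, Slc24a5, Slc27a6, Slc28a3, Slc38a10, Slc38a4, Slc39a12, Slc44a1, Slc45a3, Slc6a4, Slc6a8 and Slc9a3r2, and, outside the members, Mfsd7a, Mfsd12 and Emb. A withheld item is not reported here.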

Additional observations from a re-analysis of the deposited data

Results flagged for a closer look

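The effect of DKK1 with IL-13 minus its effect without IL-13 was tested for the 166 members with enough counts, and the 11 whose difference was called are listed here with its size on the log2 scale. The difference was 2.46 for Slc24a3, the calcium exchanger that was lower with either agent alone and overlapped with untreated cells with both. It was 1.46 for the zinc and manganese importer Slc39a8. For the dicarboxylate carrier Slc13a3 it was 1.45. For Slc24a5 it was 1.40. The light chain Slc7a8 gave 1.02, with its highest libraries those with both agents. The vesicular ATP carrier Slc17a9 gave 1.01. The nucleoside importer Slc28a2 gave -1.25 and the lysosomal hexose carrier Slc2a6 gave -1.06. Slc6a12 gave -2.17, with DKK1 replicate 1 at 16.04 CPM and the other DKK1 libraries at 5.50 and 6.27 CPM, and -1.53 without that library (adjusted p = 0.0018). Slc22a23, an orphan of the organic ion carriers, gave 1.27 at a mean of 66 counts, and its call was lost when any 1 of 7 libraries was left out (adjusted p from 0.0502 to 0.102). Slc10a6 gave -5.43, a fitted value that depends on the prior count because no untreated library held a count, and it was -4.14 without IL-13 replicate 3 (adjusted p = 0.13).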

How the results depend on the processing

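Of the 117 calls of members over the 6 comparisons none reversed under any alternative, and 80 stayed past the threshold under each alternative that tested them other than edgeR's TREAT, which tests against a 2-fold change. Of the 80, 1 (Slc6a4 for DKK1 added to IL-13) had too few counts to be tested in the fit on the compared groups, and the interaction has no such fit. Under TREAT the higher and lower of the 166 members are given beside those of all 16306 tested genes. They numbered 6 and 3 (beside 526 and 484) for DKK1 against untreated cells, and 3 and 0 (beside 365 and 117) for IL-13. IL-13 + DKK1 against untreated cells gave 11 and 6 (beside 509 and 465). DKK1 added to IL-13 gave 5 and 4 (beside 381 and 507). IL-13 added to DKK1 gave 3 and 0 (beside 180 and 97), and the interaction 3 and 0 (beside 67 and 120). IL-13 alone lowered 8 members without the filter on low counts (beside 632 of 17723 genes) and 3 when the fit held only these 2 groups (beside 508 of 15599). DESeq2's Wald test called 7 lower in the interaction (beside 435 of 16306). Leaving out 1 library at a time gave, for higher and lower members, 9 to 12 and 9 to 12 with DKK1, 7 to 10 and 3 to 7 with IL-13, 15 to 18 and 12 to 15 with both against none, 12 to 15 and 8 to 11 for DKK1 added to IL-13, 9 to 11 and 1 to 4 for IL-13 added to DKK1, and 4 to 7 and 3 to 7 for the interaction. Of these, 3 lower members with IL-13 came without untreated replicate 1, 1 lower for IL-13 added to DKK1 without DKK1 replicate 1, 4 higher in the interaction without IL-13 + DKK1 replicate 3, and 7 lower in it without IL-13 replicate 1, DKK1 replicate 2 or DKK1 replicate 3. Over all genes tested (16687 to 16824), the same fits called 820 to 858 higher and 968 to 1052 lower with DKK1. With IL-13 they called 715 to 790 and 492 to 644, and with both against none 824 to 884 and 951 to 1079. For DKK1 added to IL-13 the ranges were 694 to 769 and 931 to 980. For IL-13 added to DKK1 they were 479 to 542 and 351 to 388, and in the interaction 290 to 380 and 364 to 458. DESeq2 size factors ended 4 calls, library size alone 6, and upper-quartile factors none. Replicate numbers were not used as pairs, since deviations of libraries with the same number correlated between -0.064 and 0.082. A fit with the replicate number as a block called as many members each way in 5 of the 6 comparisons. With IL-13 this fit called 10 higher and 4 lower, with Slc38a4 lost, beside 759 and 569 of all 16306 genes. Of 36 best matches between groups, 21 fell on the library's own number, where chance gives 12.

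Of the 54 members called in at least 1 comparison, 24 had a mean under 100 counts. Leaving out 1 library ended 35 of the 117 calls, and 34 of these belonged to members with such a mean or lay within 0.1 log2 of the limit on the fold. Even numbers made up 76.0% of counts from 1 to 20, against 51.6% of counts above 1000. Counting intervals cover counting error only.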
